A study of Homo sapiens with 8 samples.

Results

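Open chromatin was described in control U2OS cells early in S phase, from 1 deposited list of 115439 ATAC-seq peaks. U2OS is an established human osteosarcoma line, a bone tumour line that maintains its telomeres without telomerase. The cells had received the control siRNA siGl3 for 72 h, were synchronized by a double thymidine block, and were collected 3 h after release without H2O2. The labels give 2 libraries for this condition, titled as replicates 1 and 2 and taken here as batch 1 and batch 2. They are part of 8 libraries in 4 conditions (the siGl3 or an Orc6 siRNA, untreated or H2O2). Both libraries share 1 peak list, so no spread between replicates and no test across libraries could be had, and the depth behind the list is unknown. Results rest on the 115292 peaks that lay on the autosomes and X.

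ATAC-seq cuts DNA with a transposase wherever nucleosomes leave it accessible, and a peak is a stretch where cuts pile up. Promoters of active genes and distal enhancers are the usual sites of such peaks. A peak at a gene shows that DNA was accessible there and says nothing by itself of how much RNA the gene made. Lineage genes, which are open in the cell types that use them, and cell cycle genes, which any dividing cell needs, are both useful for reading such a list.

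The promoters printed here were chosen because each shows a pattern described below: replication, mitotic and histone genes with a peak, a mesenchymal gene with a strong peak, the 2 starts of a bone regulator of which 1 had a peak, and both starts of a cell cycle inhibitor with none. The chosen letters were searched on both strands and stand in capitals. All sequences are RefSeq sequences of GRCh38.p14, the assembly release of hg38, and run 5′ to 3′ on the gene's strand from 220 bases before the start through the first 30 transcribed bases. In MCM3, a subunit of the replicative helicase, capitals mark 1 E2F form (TTTCCCGC) and 2 CCAAT boxes, at chr6:52284713-52284962, minus strand. In CDK1, the mitotic kinase, they mark 3 CHR elements (TTTGAA) and 2 CCAAT boxes, at chr10:60778258-60778507, plus strand. In the histone gene H2BC11 they mark 2 TATA boxes (TATAAA) and 4 CCAAT boxes, at chr6:27132766-27133015, minus strand. In VIM, which encodes the mesenchymal filament vimentin, they mark 1 GC box (GGGCGG), at chr10:17228021-17228270, plus strand. The peaks covered all 250 bases printed for the first 3 genes and 151 of those for VIM.
MCM3: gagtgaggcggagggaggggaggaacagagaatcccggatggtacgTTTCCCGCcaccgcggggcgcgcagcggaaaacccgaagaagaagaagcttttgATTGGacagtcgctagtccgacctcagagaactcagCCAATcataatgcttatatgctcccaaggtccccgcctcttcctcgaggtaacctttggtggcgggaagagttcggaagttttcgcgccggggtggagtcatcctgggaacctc
CDK1: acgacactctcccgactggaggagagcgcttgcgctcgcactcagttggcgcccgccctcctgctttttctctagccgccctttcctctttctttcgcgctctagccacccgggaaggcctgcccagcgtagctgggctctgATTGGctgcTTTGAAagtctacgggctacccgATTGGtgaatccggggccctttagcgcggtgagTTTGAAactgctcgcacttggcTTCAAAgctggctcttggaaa
H2BC11: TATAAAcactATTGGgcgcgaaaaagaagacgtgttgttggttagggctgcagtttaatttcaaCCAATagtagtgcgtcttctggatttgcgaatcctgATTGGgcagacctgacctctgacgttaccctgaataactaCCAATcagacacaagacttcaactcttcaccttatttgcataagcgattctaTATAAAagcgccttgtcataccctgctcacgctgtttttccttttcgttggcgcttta
VIM: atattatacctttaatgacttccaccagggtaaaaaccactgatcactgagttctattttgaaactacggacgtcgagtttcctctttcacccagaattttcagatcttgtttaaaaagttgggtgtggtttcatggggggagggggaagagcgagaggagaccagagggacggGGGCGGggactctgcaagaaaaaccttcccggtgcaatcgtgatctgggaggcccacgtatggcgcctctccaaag

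RUNX2 encodes the regulator that sets the bone lineage, and capitals mark RUNX letters (TGTGGT). Around its upstream listed start, chr6:45328110-45328359 on the plus strand, the bases held 4 of them and lay wholly under a peak. Around its downstream start, chr6:45422055-45422304, they held 0, and no peak lay within 1 kb. Over all promoters the order was the opposite, with RUNX letters in 9.70% of the 14831 with a peak and 14.5% of the 7301 without. The 300 bases around the upstream start held 2 CpG dinucleotides, and those around the downstream start 39. CDKN2A encodes the inhibitors p16INK4a and p14ARF from separate starts, downstream and upstream, here chr9:21974828-21975077 and chr9:21995295-21995544, both minus strand and both without a peak. Capitals mark GC boxes, 2 in the downstream and 0 in the upstream promoter.
RUNX2 upstream start: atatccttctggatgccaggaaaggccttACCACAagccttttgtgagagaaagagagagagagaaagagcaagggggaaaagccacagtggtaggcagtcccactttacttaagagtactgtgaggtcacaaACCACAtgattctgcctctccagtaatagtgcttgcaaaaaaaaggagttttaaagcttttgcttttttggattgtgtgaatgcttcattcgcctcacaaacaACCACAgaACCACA
RUNX2 downstream start: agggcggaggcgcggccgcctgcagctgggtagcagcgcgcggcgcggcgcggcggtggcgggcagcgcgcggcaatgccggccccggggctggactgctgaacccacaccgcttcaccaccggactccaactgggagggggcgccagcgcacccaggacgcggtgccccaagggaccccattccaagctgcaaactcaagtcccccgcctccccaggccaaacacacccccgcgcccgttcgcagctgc
CDKN2A downstream start: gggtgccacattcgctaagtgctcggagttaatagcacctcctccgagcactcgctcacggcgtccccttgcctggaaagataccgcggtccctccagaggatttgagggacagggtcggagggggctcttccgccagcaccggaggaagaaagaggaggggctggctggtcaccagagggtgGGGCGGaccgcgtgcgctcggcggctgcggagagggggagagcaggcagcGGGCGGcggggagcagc
CDKN2A upstream start: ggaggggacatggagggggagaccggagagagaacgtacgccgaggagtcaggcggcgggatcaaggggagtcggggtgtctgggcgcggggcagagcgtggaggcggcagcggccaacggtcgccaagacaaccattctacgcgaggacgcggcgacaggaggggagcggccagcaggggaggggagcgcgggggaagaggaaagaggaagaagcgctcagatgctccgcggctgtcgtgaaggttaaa

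Most peaks were narrow and weak, and a small share held much of the signal. The median width was 471 bp, with 5% of peaks at or under 201 bp and 5% at or over 1492 bp. Peak signal, the value the authors' caller gave each peak, had a median of 792 and reached 97994. The strongest 17634 peaks, 15.3% of the list, held as much signal as all the others together. Peaks of 1 kb or more numbered 16859 and held 45.2% of the summed signal. Wide peaks tended to have more signal. Over the peaks, Spearman's rho between signal and width was 0.857, given as a description of this list. In all, peaks covered 70.3 Mb, and the median gap between neighbours was 8745 bp.

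Peaks at gene starts were a minority of the list but a larger share of its strong peaks. Within 1 kb of the start of a protein-coding gene lay 16561 peaks, which was 14.4% of the list (Wilson 95% interval 14.2 to 14.6, for counting error only). These peaks held 29.1% of the signal. They had a median width of 941 bp, against 429 bp for the 44818 peaks in gene bodies and 427 bp for the 51255 outside genes. A further 2658 peaks lay at starts of long non-coding RNA genes. When peaks were ranked by signal into 10 groups of equal size, the share at a protein-coding start was 6.96% in the weakest group and 47.7% in the strongest. The rise was not even, since the weakest 5 groups all lay below 8% and the eighth group held 15.3%. It also depended on the ranking. Among the top 1000 peaks the share at a start was 61.1% by signal, 51.9% by summit −log10 p and 37.6% by signal per base. The share of peaks with a summit 10 to 50 kb from the nearest start was 30.6%, and 20.6% lay 100 to 500 kb away.

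**Figure D1:**
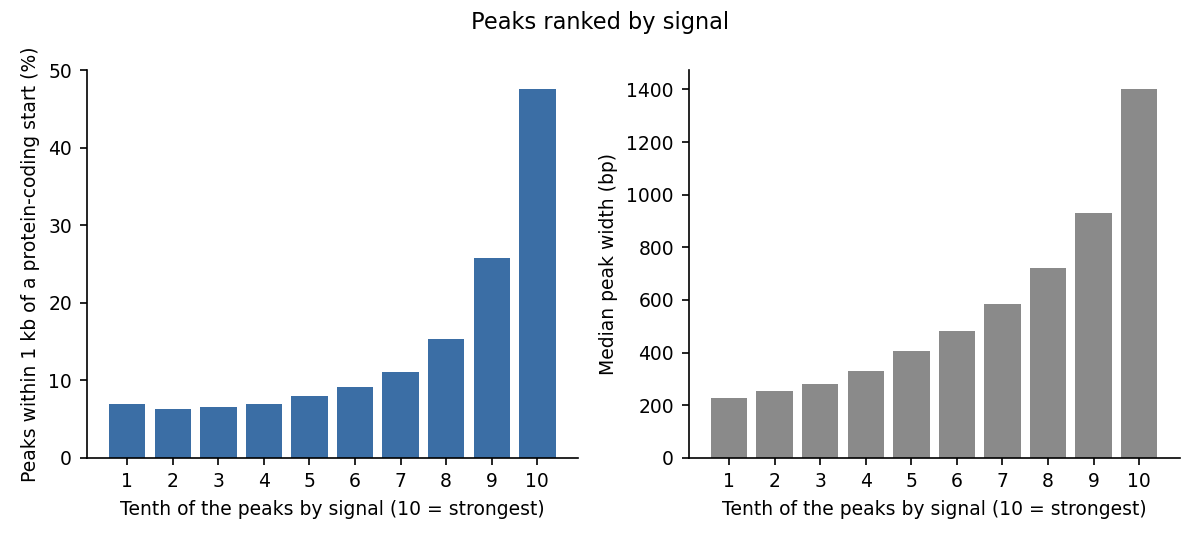
Peaks ranked by signal in 10 groups of equal size (x axis, 10 is the strongest). The left bars give the share within 1 kb of a protein-coding start in percent, from 6.96 in group 1 to 47.7 in group 10, and the right bars the median width in bp, from 228 to 1403.

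The strongest and widest peak covered 24876 bp inside PLEC on chromosome 8, at chr8:143930001-143954876, with a signal of 97994. PLEC encodes plectin, which links intermediate filaments to the cytoskeleton and membrane. Second by signal, at 51904, was a peak of 12535 bp at chr7:2520134-2532668 in LFNG, a glycosyltransferase that modifies Notch receptors. Next came the 9122 bp peak at chr12:6532021-6541142, which held the starts of GAPDH, the glycolytic enzyme, and IFFO1. Its signal was 36701. FSCN1, which encodes the actin bundler fascin, followed with 34329.7 over 6957 bp at chr7:5590651-5597607. The next peak held the starts of TNFRSF12A, HCFC1R1 and THOC6, at chr16:3019619-3025757 with a signal of 33445. TNFRSF12A is the receptor of the cytokine TWEAK. All 5 lay in or at genes, and 3 of them held a protein-coding start. Genes of chromosome 8, PLEC among them, had no listed start and were scored at their annotated ends alone.

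The next ranks mixed gene starts and distal sites. The sixth, at chr21:8991270-8997513, lay 380493 bp from the nearest protein-coding start. The seventh held the start of SIN3A, a corepressor scaffold, and the eighth was a 14068 bp peak in DHRS2, a short-chain dehydrogenase. The eighth was wide for its height: its summit reached a −log10 p of 10.8, where the first reached 17.9. Among ranks 9 to 20, the overlapping or nearest genes included VMP1, MAFK, LFNG again, ARC, AZIN1, MN1, PEG3, MYC, ANG, PDLIM7 and ST3GAL1. The nearest start to the ninth peak was that of TUBD1, 49716 bp away. The MN1 and MYC peaks lay 271378 and 111429 bp from the nearest annotated end of the gene named, which may not be its start. Of the 20 strongest peaks 10 lay at a protein-coding start. Of the 20 widest 14 did, and 8 peaks were in both sets. Others of the widest lay at, in or nearest to RHPN1, MICALL2, IRS1, TGIF1, BOP1, SLFNL1, LIF, HSF1 with DGAT1, TMEM184A, JRK and RECQL4. IRS1 is the insulin receptor adaptor and LIF a cytokine that holds stem cells undifferentiated. None of the 20 strongest was among the 20 with the highest summit or the 20 with the highest signal per base. The 2 highest per base were narrow, 233 and 194 bp, and lay next to each other on chromosome 1 at chr1:633914-634146 and chr1:629865-630058.

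The stretches with most peaks lay on chromosomes 7, 8, 20 and 22. Joining peaks at most 12500 bp apart gave 48017 stretches, of which 24970 were single peaks and 196 held 20 or more. The stretch with most peaks and most signal was chr7:1219435-1593968, with 150 peaks that covered 45.2% of it. It holds the starts of MICALL2, MAFK, PSMG3, TMEM184A, INTS1 and UNCX. MAFK encodes a small Maf factor that pairs with NRF2. Also on chromosome 7 were chr7:6348138-6659085 with 100 peaks around RAC1, a GTPase of the actin network, chr7:5331517-5572948 with 84 around ACTB and TNRC18, and chr7:2444318-2733630 with 79 around LFNG. Outside chromosome 7, chr20:63002524-63414049 held 128 peaks around YTHDF1 and ARFGAP1, and chr8:143866653-144165013 held 80 around PLEC. The rest of the 10 with most peaks lay on chromosome 8, over TSNARE1 with 71, around ADGRB1 with 61 and around RHPN1 with 55, and on chromosome 22 around RANBP1 with 66. Added by summed signal were chr16:2956035-3203485 around TNFRSF12A with 52 peaks, chr8:144310509-144480106 around HSF1 with 54, and chr22:30183954-30263682 around LIF and OSM with 21.

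Some of the largest stretches held no peak at a gene start. The first of these, chr8:127793553-127956436, had 49 peaks. It lay 50602 bp from the nearest position scored as a start, an annotated end of MYC, which may not be its start. The second, chr14:61456717-61603063, had 39 peaks in and beside PRKCH, with the start of HIF1A, the hypoxia factor, nearest at 92450 bp. A stretch of 17 peaks, chr17:72357886-72431368, had a summed signal of 68729. It lay 231470 bp from the upper annotated end of SOX9, the cartilage regulator, as no start of SOX9 was listed. The latter 2 stretches are named after their values were seen. Which gene any distal peak acts on is not measured here.

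Bins of 1 Mb gave the same regions. Of 3043 bins, 181 were empty and the median held 31 peaks. The densest was chromosome 7 from 1 to 2 Mb with 315 peaks, and 286 of those lay away from protein-coding starts. Chromosome 8 from 142 to 143 Mb followed with 240. Of the other 8 in the first 10, 3 lay in the first 7 Mb of chromosome 7, with 195, 184 and 171 peaks. A further 2 lay at the end of chromosome 20, with 194 and 181, and 2 at the end of chromosome 8, with 176 and 166. The last was chromosome 22 from 24 to 25 Mb with 165. The first 7 Mb of chromosome 7 held 169 peaks per Mb, where the rest of that chromosome held 34.1. The peaks there had a median signal percentile of 47.1, the percent of all peaks with a lower signal. Some of the strongest peaks of the list also lay there, those in LFNG and at FSCN1 among them. The list holds no measure of DNA copy number, so its part in these counts was not tested.

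By chromosome, density ran from 67.8 peaks per Mb on chromosome 19 to 14.0 on X, with 38.1 over all. Chromosomes 17 and 22 followed the first with 63.0 and 61.5, and chromosomes 13 and 4 stood just above X with 18.2 and 24.9. Chromosome 19 is the most gene-dense, and per protein-coding gene the order changed. It had 2.74 peaks per gene and X had 2.57, the 2 lowest values, while chromosomes 18, 8 and 10 had most, with 9.34, 8.80 and 8.34. Over the 23 chromosomes, Spearman's rho between peaks and genes per Mb was 0.717, as a description. X stood low on other measures too: 51.1% of its protein-coding genes had a peak at the start, and the median peak there lay at the 42.9th signal percentile. Chromosome 21 had a similar gene share, 51.5%.

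**Figure D2:**
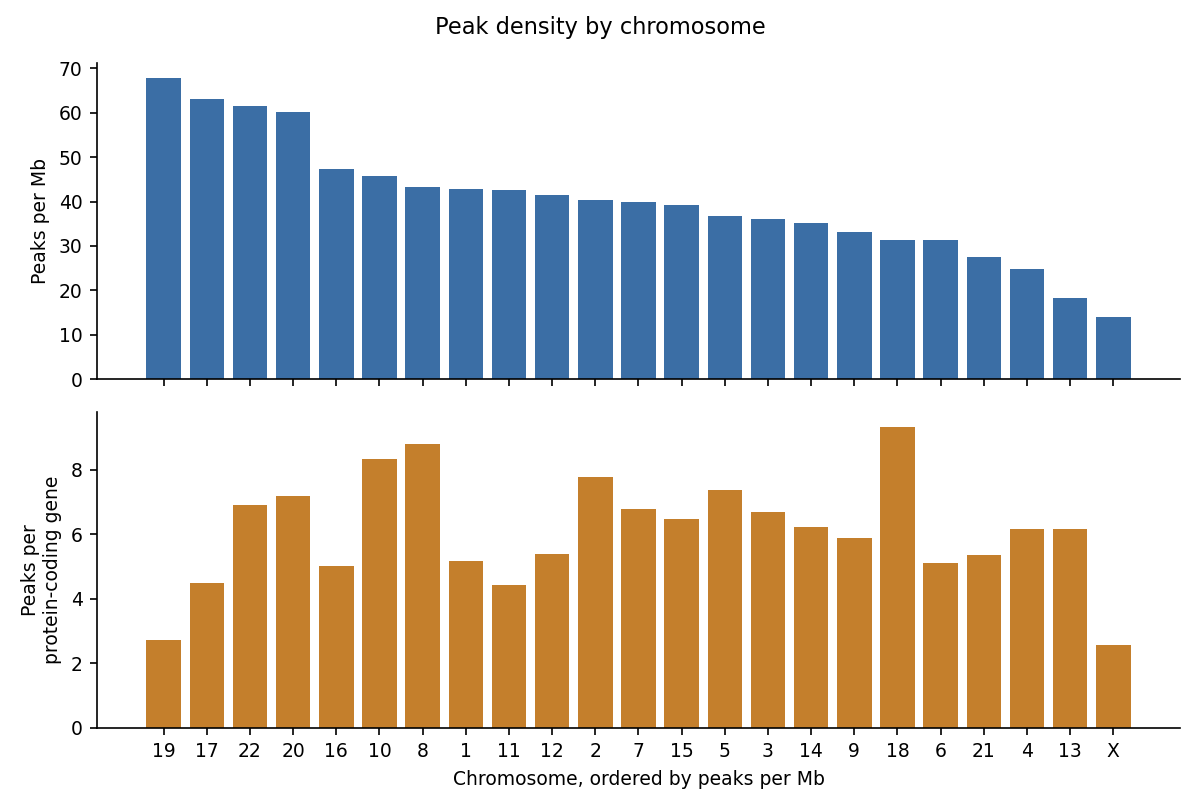
Peaks per Mb (upper bars) and peaks per protein-coding gene (lower bars) for each chromosome, ordered by the upper value. Chromosome 19 is first per Mb at 67.8 and second lowest per gene at 2.74, and X is lowest on both, at 14.0 and 2.57.

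The protein-coding gene with most peaks within its body was RBFOX1, followed by RANBP2. RBFOX1 and RBFOX3, neuronal splicing regulators, held 111 and 70 peaks, and ASIC2, an acid-sensing channel of neurons, held 70. RANBP2 held 87, MAD1L1 86, GPHN 74, RAD51B 71, KIAA1671 64 and GSE1 60. The count of RANBP2 was taken over its whole annotated span, chr2:108719482-109842301, at 7.75 peaks per 100 kb. MAD1L1, a spindle checkpoint gene, was dense, with 20.6 peaks per 100 kb. RBFOX1, at 4.49 per 100 kb, compared with a median of 3.26 over the 3351 genes of 100 kb or more. Of those long genes 94 held no peak in the body.

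Of 19974 protein-coding genes, 13736 had a peak within 1 kb of the start, which is 68.8%. This share is the background against which the lists below are read. Taking the strongest start peak of each gene, the median width was 1130 bp and the median signal percentile 88.5. Over all peaks at protein-coding starts these medians were 941 bp and 80.8. Of the 6238 genes without, 3281 had a peak elsewhere in the gene or within 5 kb of it. Starts of long non-coding RNA genes had a peak in 37.2% of cases, and in 24.5% when no protein-coding start lay within 5 kb. For 4162 genes with no listed start, all genes of chromosome 8 among them, both annotated ends were used. Of these, 63.2% had a peak, against 70.2% of those with a listed start. For such genes a peak may lie at the far end of the gene. Listed starts also miss some annotated 5′ ends, and counting those as well gave 13917 genes, or 69.7%.

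The number of CpG dinucleotides around the start moved with the presence of a peak. Promoters with a peak within 1 kb had a median of 26 CpG in the 300 bases around the start, and those without had 6. The share with a peak was 18.8% for promoters with 0 to 2 CpG, 47.5% with 6 to 10, and 87.3% with more than 30. It rose little beyond 20 CpG. CpG-rich promoters form CpG islands, which are open in most tissues.

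**Figure D3:**
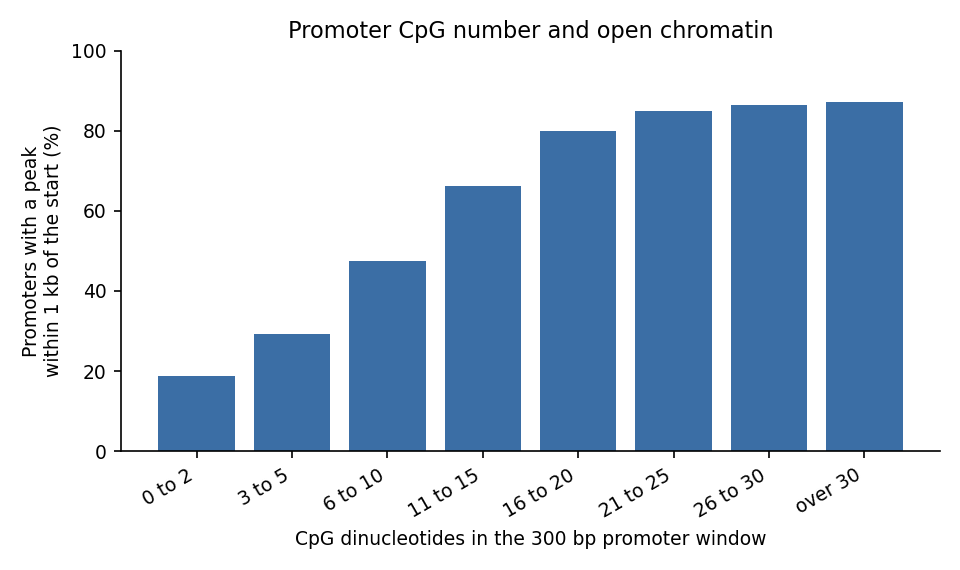
Share of RefSeq promoters with a peak within 1 kb of the start (y axis, percent) by the number of CpG dinucleotides in the 300 bases around it (x axis). The share is 18.8 in the lowest class and 87.3 in the highest.

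Short letters in the promoters differed between gene groups. The CHR element stood in 52.6% of the 38 promoters of G2/M genes, as in CDK1 above, and in 12.4% of all 22132. It also stood in 37.3% of histone, 35.2% of olfactory receptor and 35.0% of keratin-associated promoters. The E2F form shown in MCM3 stood in 23.3% of the 30 origin licensing and firing promoters, and in 2.00% of all. TATA boxes and CCAAT boxes stood in 67.2% and 85.1% of the 67 histone promoters, as in H2BC11, and in 9.46% and 34.6% of all. The TATA letters stood in 80.0% of the 80 keratin-associated promoters. The ETS letters (CCGGAA) stood in 53.2% of 79 ribosomal protein promoters and in 21.2% of all. Among promoters with 0 to 2 CpG, the AP-1 letters (TGANTCA) stood in 25.6% of the 430 with a peak and in 11.8% of the 1857 without. Over all promoters the order was the opposite, with 5.46% of the 14831 with a peak and 7.55% of the 7301 without. A match is a description of the letters, not evidence of a bound factor.

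The 3 CpG-poor promoters with AP-1 letters whose peaks were strongest are printed to show the letters, in capitals, under an open start. They are LRRC20 (chr10:70376763-70377012, minus strand), PLEKHG4 (chr16:67277942-67278191, plus strand) and CD59 (chr11:33722698-33722947, minus strand). Their peaks had signals of 8965, 8298 and 7985 and covered all 250 bases printed. CD59 encodes a surface protein that blocks complement, and its stretch held 3 matches.
LRRC20: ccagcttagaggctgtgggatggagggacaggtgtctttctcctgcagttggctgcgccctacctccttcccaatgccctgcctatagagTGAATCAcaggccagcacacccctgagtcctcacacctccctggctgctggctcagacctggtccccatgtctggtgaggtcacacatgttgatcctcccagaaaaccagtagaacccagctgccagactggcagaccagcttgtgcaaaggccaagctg
PLEKHG4: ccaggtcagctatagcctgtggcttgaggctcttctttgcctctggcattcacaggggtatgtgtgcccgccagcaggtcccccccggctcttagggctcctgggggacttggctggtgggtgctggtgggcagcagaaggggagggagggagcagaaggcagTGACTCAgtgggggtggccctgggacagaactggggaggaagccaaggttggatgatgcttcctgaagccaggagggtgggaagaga
CD59: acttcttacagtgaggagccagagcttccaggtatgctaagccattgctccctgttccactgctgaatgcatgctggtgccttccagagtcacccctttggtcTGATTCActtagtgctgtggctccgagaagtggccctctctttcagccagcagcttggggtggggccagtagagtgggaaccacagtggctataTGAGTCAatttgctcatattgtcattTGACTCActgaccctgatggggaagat

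Several gene-rich stretches held no peak at all, which bears on the lists. The first by genes was chr6:28489589-33481283, 4.99 Mb around the major histocompatibility complex, with starts of 172 protein-coding genes. In the stretches of equal length before and after it, 62.1% and 81.2% of genes had a start peak. Of 214 promoters listed inside it 91 had more than 15 CpG, a class in which 85.5% of all promoters had a peak. The next, chr19:54025036-55091971, held 43 gene starts, the leukocyte receptor genes among them. Other such stretches lay on chromosomes 17, 5, 15, 16 and 14. The list has 47 peaks on alternate sequences of the build, 7 of them alternates of chromosome 6. The handling of multiply aligned reads is unstated in the sources used here, and its part in these gaps was not tested. In all, 468 protein-coding genes lay in peak-free gaps of 1 Mb or more.

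Of 20 osteoblast genes 12 had a start peak, of 19 mesenchymal genes 13, and of 11 cartilage genes 7. Together that was 32 of 50, or 64.0%, below the 68.8% of all genes. Of 127 genes of other lineages 53 had a start peak, or 41.7%. Both counts describe this list and carry no test. With genes that have a listed start alone, they were 24 of 35 and 32 of 78, beside 70.2% of all such genes. Counts of several other lineages depended on the window: with 5 kb, 7 skeletal muscle, 5 cardiac, 11 epithelial, 8 liver, 7 glial, 6 pluripotency and 5 germ cell genes had a peak. The share of all protein-coding genes at that window was 78.3%.

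Among the osteoblast genes the strongest start peaks were those of COL1A1, the main bone collagen chain, with a signal of 9801 over 2235 bp, and ATF4, a stress and osteoblast factor, with 8993. TNFRSF11B, which encodes the RANKL decoy osteoprotegerin, had 5990.2, SPARC, the matrix protein osteonectin, 4251, SP7, the factor osterix, 3606 and BGLAP, or osteocalcin, 2652. COL1A1, TNFRSF11B and SP7 were scored at an annotated end for want of a listed start. The SP7 peak lay outside the gene, 978 bp beyond its lower end, and so may not be at its start. The peak of TNFRSF11B also held the start of COLEC10. RUNX2 stood lower, at the 62.0th percentile with a peak of 593 bp over the upstream start printed above, and held 11 peaks in its body. No start peak was found at ALPL, the alkaline phosphatase of mineralizing bone, IBSP, DLX5, DLX6, BMP2 or PHEX. ALPL nonetheless held 6 peaks in its body, the nearest 2452 bp from the start. SOST and DMP1, genes of osteocytes, complete the 8 without.

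The mesenchymal list was led by VIM with a signal of 11757 over 2881 bp and by PDGFRA, a receptor of fibroblast precursors, with 8049. ZEB1, a repressor of epithelial genes, had 5799, FN1, which encodes fibronectin, 5057, the collagen crosslinker LOX 4567 and the repressor SNAI2 4512. The genes without were TWIST1, ZEB2, THY1, NT5E, CDH11 and POSTN. For THY1 and CDH11 the nearest peak lay just past the window, at 1381 and 1265 bp, while for TWIST1 it lay at 33599 bp. In the cartilage list SOX9 led with a signal of 8278, above SOX6 with 3947, HAPLN1 with 3838 and SOX5 with 3010. COL11A1 and ACAN, which encodes aggrecan, had 1884 and 886. COL2A1, COL9A1, COMP and COL11A2 had none, and COL11A2 lies in the gap on chromosome 6.

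Markers of other tissues were mixed. Of 10 endothelial genes 2 had a start peak, SOX17 and KDR. PECAM1, CDH5, TEK, TIE1, VWF and ERG had none. This count depended on the window, since 9 of 10 had a peak within 5 kb, and VWF held 25 peaks in its body. Of 12 skeletal muscle genes 4 had a start peak: MYOD1 at the 84.3rd percentile, MEF2C, PAX7 and MYOG. MYOD1 had no listed start, and its peak lay 334 bp from its upper annotated end, which may not be its start. MYF5, MYF6, MYH3, ACTA1, CKM and DES had none. Of 8 cardiac genes 3 had one, NKX2-5, TNNT2 and ACTN2, and GATA4, HAND2, TBX5, MYH6 and NPPA did not. Of 9 adipocyte genes 5 had one: CEBPB, LIPE, LPL, PPARG and CEBPA, in that order of signal. The fat cell products ADIPOQ, LEP, FABP4 and PLIN1 had none.

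Of 13 epithelial genes 7 had a start peak. The simple-epithelium keratin KRT8 stood out with a signal of 11830.2 over 3754 bp, in a promoter of 2 CpG, and its partner KRT18 had 4794. KRT19, CLDN4, ELF3 and EPCAM followed. KRT19 had no listed start, and its peak lay 979 bp beyond its lower annotated end, which may not be its start. CDH1, which encodes E-cadherin, KRT14, GRHL2, ESRP1, OVOL1 and TP63 had no start peak. Of 15 blood genes 8 had one, led by RUNX1 with 4404 and 25 peaks in its body. GFI1B and CD34 followed at their listed starts. SPI1, CD4 and CD3E had no listed start, and their peaks lay by the lower end of SPI1 and beyond the upper ends of CD4 and CD3E, so these may not be at a start. The peak of CD4 also held the start of GPR162. Among the 8 blood genes with a listed start, 4 had a peak there. PTPRC, the CD45 gene, GATA1, CD79A, TAL1 and LYZ had none. The globin gene HBB also had none.

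Of 14 neuronal genes 8 had a start peak: the tubulin gene TUBB3 with 11236, SLC17A7 with 8632, SNAP25 with 7881, RBFOX3 with 6968, then GAD1 and STMN2 among the first 6. SOX1, PAX6, NEUROD1 and NEUROG2 had none. MAP2 had none at its listed starts but one at its annotated 5′ end, at the 76.7th percentile. Of 8 glial genes 4 had one, OLIG2 at the 95.8th percentile, OLIG1, AQP4 and S100B, and GFAP, MBP and SOX10 were among those without. S100B had no listed start and was scored by its lower annotated end, which may not be its start. Of 7 melanocyte genes 3 had a start peak. DCT, a melanin enzyme, had 10461 over 1589 bp and PMEL 2572, but the PMEL peak held the start of CDK2, and MITF followed with 1731. TYR, MLANA, TYRP1 and SOX10 had none.

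Of 11 liver genes 4 had a start peak. FOXA3 and FOXA1 led, at the 96.1th and 91.4th percentile, and their peaks held the starts of SYMPK and TTC6, while APOA1 and FOXA2 followed. APOA1 had no listed start, and its peak lay over its lower annotated end, which may not be its start. ALB, HNF4A, AFP, TTR and SERPINA1 had no start peak, and SERPINA1 lies in a gap of over 1 Mb on chromosome 14. Of 10 pluripotency genes found 3 had one: SOX2 at the 92.4th percentile, LIN28B at the 13.8th and SALL4 at the 4.95th. POU5F1, NANOG, LIN28A, DPPA4, ZFP42 and PRDM14 had none, and POU5F1 lies in the gap on chromosome 6. Of 11 germ cell genes 2 had one, MAGEA4 and MAGEA1, and DDX4, DAZL, DPPA3, SYCP1, SYCP3 and STRA8 did not. MAGEA1 had no listed start, and its peak lay over its lower annotated end, which may not be its start. Of the 85 lineage genes with a start peak, 6 shared it with the start of another gene.

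**Figure D4:**
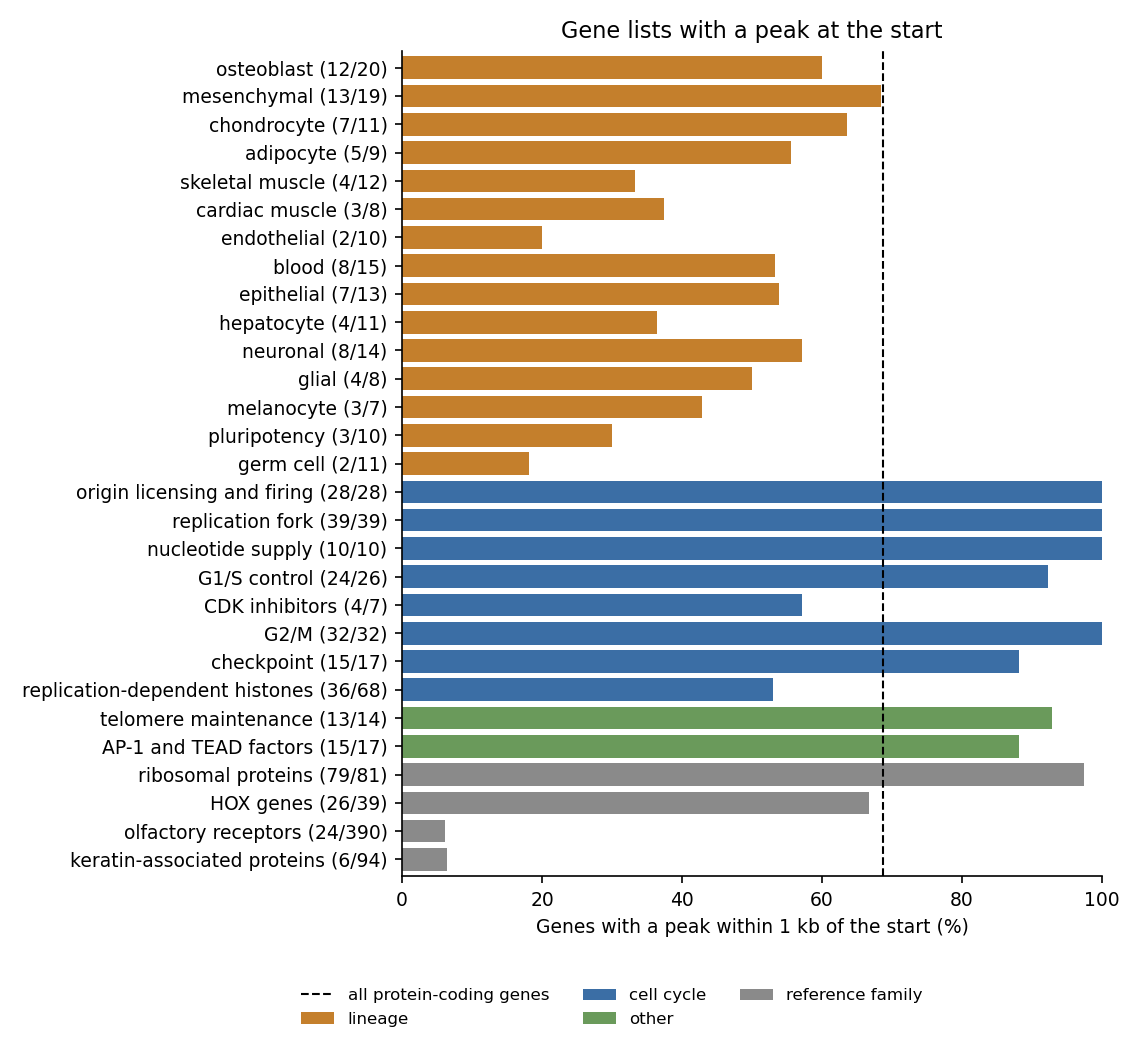
Share of each list with a peak within 1 kb of the start (x axis, percent), with the counts in brackets and the share of all protein-coding genes, 68.8, as a dashed line. The 15 lineage lists lie below the line and 6 of the 8 cell cycle lists above it.

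Nearly every gene of the replication and division machinery had an open start. Leaving out histones, 152 of 159 cell cycle genes had one, or 95.6%, against 68.8% of all genes. The median signal percentile of those 152 was 94.4. Of these peaks 34 also held the start of another gene.

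All 28 genes of origin licensing and firing had a start peak, 22 of them at a listed start, from CDT1 at the 75.2nd percentile up. RECQL4, a helicase needed for origin firing, had 21311 over 6173 bp. That peak was scored at the lower annotated end of RECQL4, which may not be its start, and was shared with SLC33A2. MCM7 had 10097 and ORC6, the origin recognition subunit the study silenced in other libraries, had 10020.0 over 1987 bp, in a peak that also held the start of VPS35. CDC45, the helicase cofactor, had 8278, MCM5 7364 and MCM3 6616. All 39 fork genes had one as well. The histone chaperone gene ASF1B led with 9366, then CLSPN, the checkpoint mediator claspin, TIPIN, POLD2, POLD1 and PCNA, the sliding clamp, with 6526. All 10 nucleotide supply genes had one, led by RRM2B with 11717, TYMS with 8759 and TK1 with 7768, then RRM2, DCK and SAMHD1.

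Of 26 genes of G1/S control 24 had a start peak. CKS1B led with 13924 over 3494 bp, in a peak shared with SHC1. CDK2 had 8539 in a peak 604 bp from its upper annotated end that held the start of RAB5B, while the PMEL peak of 2572 lay over its lower end. CDK4, CCND2, CCND3 and SKP2 followed with 6652, 6565, 5752 and 5364. The start of CCNA1, a germ cell cyclin, lay 11284 bp from the nearest peak. RB1, the retinoblastoma gene, was counted as without because its only listed start, far inside the gene, lay in a peak-free gap of 228 kb. Its annotated 5′ end had a peak of 794 bp at the 80.3th percentile, and with that end counted the list had 25 of 26. Of 7 CDK inhibitor genes 4 had a start peak, CDKN1A, the p21 gene, with 11607, CDKN2C with 7565, CDKN2D with 4797 and CDKN1B with 4548. CDKN2A and CDKN2B lay together in a peak-free gap of 110 kb, and the nearest peak to CDKN1C was 2671 bp away. The CDKN2A promoters printed above held 26 and 28 CpG in 300 bases, a class in which 86.5% of promoters had a peak.

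All 32 G2/M genes had a start peak. CDC20, the activator of the anaphase ubiquitin ligase, led with 7440.3, then KIF11 with 6632, CENPA with 6545, MAD2L1 with 6256, AURKA with 6246 and WEE1 with 6245. CDK1, printed above, had 5285 over 1190 bp. Of 17 checkpoint genes 15 had one: CHEK2 with 9731, BRCA1 with 8709, ATM with 7122, TP53BP1 with 6841 and CHEK1 with 5649.8 among the first. RAD17 and MDC1 had none, and both lie in peak-free gaps of over 1 Mb.

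**Figure D5:**
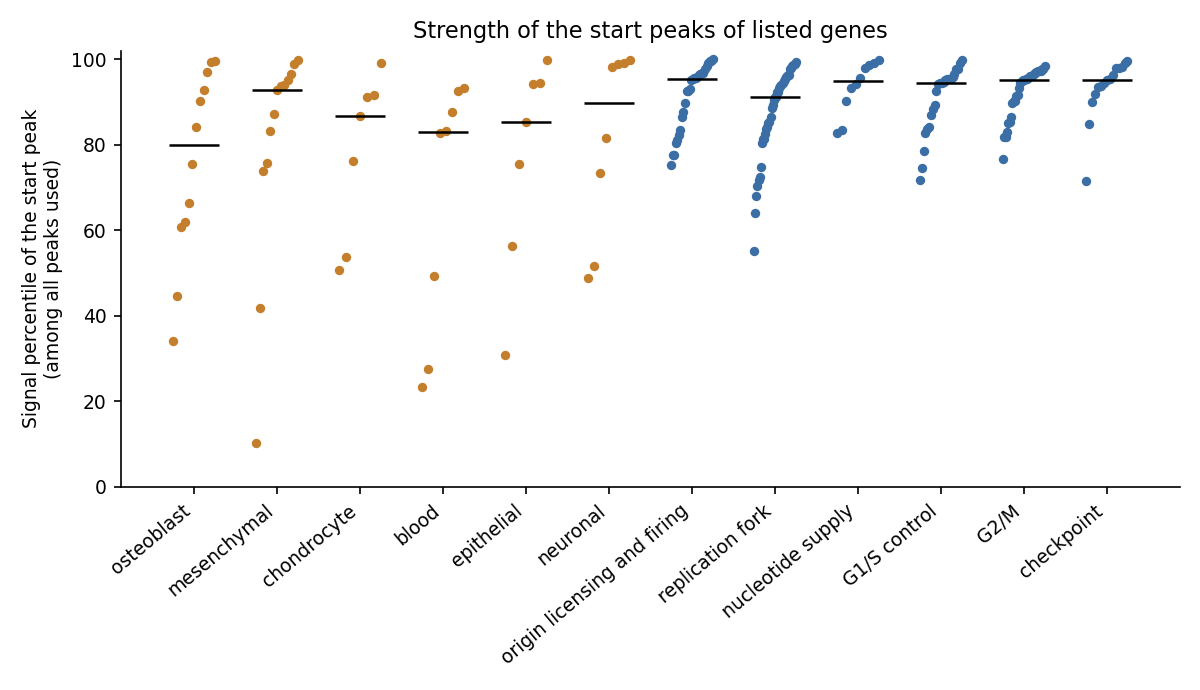
Signal percentile among all peaks used (y axis) of the strongest start peak of each listed gene that has one, with the list median as a bar. The plot shows 6 of the 8 cell cycle lists, with medians between 91.2 and 95.4, and 6 of the 15 lineage lists, between 79.9 and 92.8; of the lists not drawn, CDK inhibitors and histones have 96.6 and 93.2 and the other lineages 13.8 to 85.8.

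Replication-dependent histones, which are transcribed in S phase, had a start peak at 36 of 68 genes, on 23 distinct peaks, since divergent pairs share them. On chromosome 6 the count was 32 of 54, and on chromosome 1 it was 3 of 13. The strongest, with a signal of 15396 over 4596 bp, held the starts of H2AC20, H2AC21 and H2BC21. The pair H2AC11 and H2BC11 followed with 13986 over 3525 bp, and H2AC12 with H2BC12 with 9189.8. H1-3, H1-5, H2AC1, H2AC16, H2AC17 and H2AC18 were the first in the list without. The family has near-identical copies, and the part that read placement among them has in the 32 without was not tested.

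Of 14 telomere genes 13 had a start peak, all but DAXX, and 12 had one with a 500 bp window. The histone gene H3-3B had 9391, the shelterin gene TINF2 9322, SLX4IP 7210.5, ACD 6805, TERF2IP 5236 and SMARCAL1 4469.6. TERT, the telomerase catalytic subunit, had a weak peak at the 8.12th percentile, 941 bp from its listed start. ATRX, whose product with DAXX places histone H3.3 at telomeres, stood at the 65.8th. DAXX lies in the gap on chromosome 6. Of 17 AP-1 and TEAD factor genes 15 had a start peak, with a list median at the 98.4th percentile. FOSL2 had 18460.0 over 4339 bp, MAFK 14996, JUN 14755, FOS 8868, FOSL1 8701 and TEAD4 8386. The FOSL1 peak was scored at its lower annotated end, which may not be its start, and also held the start of CCDC85B. ATF3 and BATF had no start peak.

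Reference families set the range. Of 81 ribosomal protein genes 79 had a start peak, led by RPL23A with 21211. That peak was scored at the upper annotated end of RPL23A, which may not be its start, and held the starts of TLCD1 and NEK8. RPS18 and RPS9, the 2 without a start peak, lie in the gaps on chromosomes 6 and 19. Of 390 olfactory receptor genes, silent outside the nose, 24 had one, and of 94 keratin-associated protein genes, used in hair, 6 had one. Within 5 kb those counts were 68 and 17. HOX genes lay between with 26 of 39. The HOXC peak that held the starts of HOXC4, HOXC5 and HOXC6 led with 10629 over 3681 bp, and HOXB9 and HOXA5 were among the next.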

How the data were processed

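ATAC-seq was made with a commercial kit and sequenced on a NovaSeq instrument, per the labels' protocols. The submitters' processing notes name the hg38 build, Genrich, Bowtie2, and also Picard, edgeR, deepTools, SAMtools and bcl2fastq 2.20. Their roles, thresholds, duplicate handling and any shift of read ends are not given in the sources used here.

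The deposited narrowPeak list holds the authors' display score, the authors' peak signal, and for each peak their −log10 p and −log10 q. The score equals 1000 times signal divided by width, capped at 1000, within 1 in all 115439 peaks, and 87.1% of them are at that cap. These values only described and ranked peaks within the list. The list was taken as pooled because its name carries both replicate numbers.

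Starts were converted to 1-based positions. Python 3.11.15, pandas 2.3.3 and numpy 2.4.6 were used, and overlaps were checked on simulated data. A peak counted at a start when its edge lay within 1 kb. Starts came from RefSeq promoters (GRCh38.p14), all listed starts of a gene being used. None were listed on chromosome 8, so the CpG and letter shares hold no promoters of that chromosome. Genes with no listed start were counted at both annotated ends. Distances to the nearest start used those ends as well, so some run to the far end of a gene. Chromosome spans ran to the last gene or peak. Motifs were searched on both strands of 300 bases.

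The members and the 29 gene lists were chosen with earlier results of these data known. The genes named were, per list, the 6 with the highest signal percentile and those without a peak (the first 6 where more), the 20 strongest and widest peaks, the 10 stretches by signal and by peaks, the 10 densest bins and the 10 genes with most peaks. Others, among them RUNX2, SOST, DMP1, HBB, CDK1, CDT1, TERT and ATRX, were named after their values were seen. TDGF1 was not matched. Some genes that the rule selects are not reported here. Alternatives covered the window, signal above the median, summit position, ranking, joining distance and, added after seeing the data, genes with a listed start alone, annotated 5′ ends, and genes outside gaps of 1 Mb. The last can only raise a share, since the gaps are peak-free, and supports nothing here.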

Additional observations from a re-analysis of the deposited data

Results flagged for a closer look

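The list also holds 147 peaks on sequences outside chromosomes 1 to 22 and X, which entered no count in the results and are listed here as a signal in data the comparisons did not use. Of these, 71 lay on unlocalized sequences of known chromosomes, 47 on alternate sequences, 27 on unplaced sequences and 2 on Y. The sequence with most held 17. No control library was used to set a level for them.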

How the results depend on the processing

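The share of peaks at protein-coding starts moved from 14.4% to 12.3% with a 500 bp window, 23.7% with 5 kb, 21.8% among peaks above the median signal and 12.9% when the summit had to lie within 1 kb. The number of genes with a start peak stayed within 1.5 times of 13736 under those 4 settings, with listed starts alone and with annotated 5′ ends added, between 11104 and 15646. The ratio of peaks per Mb between chromosomes 19 and X, 4.85, became 1.06 per protein-coding gene. The stretch with most peaks held 150, and with peaks joined at 5 kb, which breaks stretches, it held 49. Counts of the 29 gene lists stayed within 1.5 times of the value given in all lists with the summit rule, in 28 with the 500 bp window, in 22 with stronger peaks alone, in 21 with listed starts alone and in 19 with the 5 kb window, where the endothelial count went from 2 to 9. No paired analysis was possible because both libraries share 1 peak list and no test was run. The depth behind the list is unknown, so a missing peak is a site not called, not a closed site.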
